A study of Mus musculus with 2 samples.

Results

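The cells described here were ventricular zone progenitors of the embryonic medial ganglionic eminence (MGE) that carried many transcripts of mitotic genes. They were chosen from deposited values in 2 steps. The base took every cell with a value of at least 3 for Hes5, a value under 10 for Tubb3 and a value of 0 for Dll1, which kept 746 of 4001 cells. In each cell the values of Cdc20, Ccnb1, Cenpf, Ube2c and Tpx2 were then added to a sum called M, and base cells at or above its 75th percentile, an M of 35, were the members. This gave 190 mitotic progenitors, 4.75% of all cells and 25.5% of the base. They were set against the 556 other base cells and against 237 cells outside the base that also had an M of at least 35.

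The embryos were of the mouse strain CD-1 and the stage E11.5. Dissociated MGE tissue was profiled in 1 pooled 10x Chromium run, and MULTI-seq barcodes, lipid-anchored oligonucleotides taken up by cell membranes, marked the suspension of each cell. The pool combined suspensions labelled with the enhancers hs192 and hs799. Of its 6 sample barcodes, 4 marked cells sorted for GFP and 2 marked ungated cells, so the gate can set any share of cells given here. No map from cells to barcodes was used and the labels give no number of embryos, so the cells were treated as 1 sample with no replicates. Differences are therefore described by their size, with no test, and the standard deviation (SD) gives the spread over cells of 1 library.

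Ventricular zone progenitors, or apical radial glia, line the ventricle of the embryonic brain. Their nuclei move within the neuroepithelium during the cell cycle and reach the ventricular surface to divide, while Notch signalling through factors such as Hes5 keeps them undifferentiated. Entry into mitosis is driven by the kinase Cdk1 bound to cyclin B, the product of Ccnb1, with the help of the kinases Plk1 and Aurora A. Exit from mitosis needs the anaphase-promoting complex, an E3 ubiquitin ligase that Cdc20 activates and that works with the E2 enzyme Ube2c to mark cyclin B and securin for destruction. Cenpf is a kinetochore protein, and Tpx2 binds and activates Aurora A on spindle microtubules. Dll1 is a Notch ligand that rises in cells about to leave the progenitor state, and Tubb3 is a neuronal tubulin. Transcripts of the G2/M genes build up in G2 and persist into mitosis, so the values cannot separate cells in G2 from cells in division.

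Promoters of many G2/M genes hold a cell cycle homology region (CHR), bound by the MuvB core of the DREAM and MYB-MuvB complexes, and CCAAT boxes, bound by NF-Y. The windows printed next are those of 4 of the 5 genes that make up M, of Plk1, a mitotic kinase gene outside the rule, and of Ung, a base excision repair gene that had a lower level in members than in the other base cells. Each runs from 250 bases before to 50 bases after the start site in RefSeq on GRCm38.p6, 5′ to 3′ on the gene's strand. Capitals mark the letters TTTGAA or TTTAAA (CHR) and CCAAT on either strand, so that TTCAAA and ATTGG are also in capitals. Where 2 matches overlap or adjoin, as in Ube2c, the capitals run together. The windows lie at chr13:100786437-100786736 on the minus strand for Ccnb1, chr4:118437294-118437593 on the minus strand for Cdc20 and chr1:189688037-189688336 on the minus strand for Cenpf. Those of Ube2c, Plk1 and Ung lie on the plus strand at chr2:164769679-164769978, chr7:122159185-122159484 and chr5:114130185-114130484.
Ccnb1: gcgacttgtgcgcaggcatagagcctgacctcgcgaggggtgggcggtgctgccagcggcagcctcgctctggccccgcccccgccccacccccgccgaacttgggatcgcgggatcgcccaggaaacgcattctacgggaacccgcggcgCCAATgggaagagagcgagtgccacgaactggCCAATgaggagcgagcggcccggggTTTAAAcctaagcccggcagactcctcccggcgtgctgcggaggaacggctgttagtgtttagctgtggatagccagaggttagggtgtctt
Cdc20: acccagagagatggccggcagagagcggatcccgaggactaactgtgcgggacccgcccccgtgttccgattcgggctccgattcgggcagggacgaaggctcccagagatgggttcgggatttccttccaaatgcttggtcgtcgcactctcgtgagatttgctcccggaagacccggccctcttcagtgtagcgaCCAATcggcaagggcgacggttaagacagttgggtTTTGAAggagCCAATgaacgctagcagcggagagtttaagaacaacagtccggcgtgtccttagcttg
Cenpf: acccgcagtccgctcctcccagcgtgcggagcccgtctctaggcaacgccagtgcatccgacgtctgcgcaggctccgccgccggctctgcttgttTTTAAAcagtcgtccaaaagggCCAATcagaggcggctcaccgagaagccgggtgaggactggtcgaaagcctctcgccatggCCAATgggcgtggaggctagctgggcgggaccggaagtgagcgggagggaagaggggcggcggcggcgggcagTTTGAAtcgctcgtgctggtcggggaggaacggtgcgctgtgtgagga
Ube2c: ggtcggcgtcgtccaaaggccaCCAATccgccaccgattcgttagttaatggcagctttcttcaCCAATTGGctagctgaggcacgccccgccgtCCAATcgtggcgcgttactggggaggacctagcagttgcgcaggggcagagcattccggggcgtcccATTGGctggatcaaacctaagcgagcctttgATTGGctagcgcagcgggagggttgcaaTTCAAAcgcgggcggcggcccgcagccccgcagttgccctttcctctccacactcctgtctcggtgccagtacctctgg
Plk1: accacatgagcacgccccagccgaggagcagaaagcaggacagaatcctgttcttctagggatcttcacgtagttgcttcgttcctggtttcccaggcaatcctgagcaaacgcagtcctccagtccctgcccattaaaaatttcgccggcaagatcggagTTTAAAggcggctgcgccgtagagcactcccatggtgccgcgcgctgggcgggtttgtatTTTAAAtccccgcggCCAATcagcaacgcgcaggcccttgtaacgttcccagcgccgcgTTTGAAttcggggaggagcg
Ung: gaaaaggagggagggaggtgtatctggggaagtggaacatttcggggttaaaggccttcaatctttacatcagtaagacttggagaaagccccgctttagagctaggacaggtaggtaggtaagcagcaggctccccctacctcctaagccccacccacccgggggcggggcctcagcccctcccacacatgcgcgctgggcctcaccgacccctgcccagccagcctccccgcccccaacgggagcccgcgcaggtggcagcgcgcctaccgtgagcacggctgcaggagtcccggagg

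The CHR letters began 42 bases before the start site in Ccnb1, 18 in Cdc20 and 29 in Ube2c. Cenpf held 2 such matches, of which the upstream one began 154 bases before the start, and Plk1 held 3. Ung held neither set of letters in this window. How often the same letters occurred in the promoters of all genes with higher or lower levels in mitotic progenitors is given after the expression results.

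Members had an M of 35 to 149 with a median of 62, the other base cells had 0 to 34 with a median of 9, and the mitotic cells outside the base had 35 to 160 with a median of 63. The sums of the members and of the cells outside the base thus covered nearly the same range. All 5 genes had a value above 0 in 186 of the 190 members (97.9%), against 176 of the 556 other base cells (31.7%). In members, Ube2c gave 34.7% and Cenpf 34.2% of the summed M, while Tpx2 gave 11%, Ccnb1 10.9% and Cdc20 9.16%. Cenpf was the largest of the 5 values in 98 members and Ube2c in 88. Within members, the rank correlation between pairs of the 5 genes ran from 0.21 for Cdc20 with Tpx2 to 0.65 for Ccnb1 with Ube2c over 190 cells of 1 library, which were selected on the sum of these same values.

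**Figure D1:**
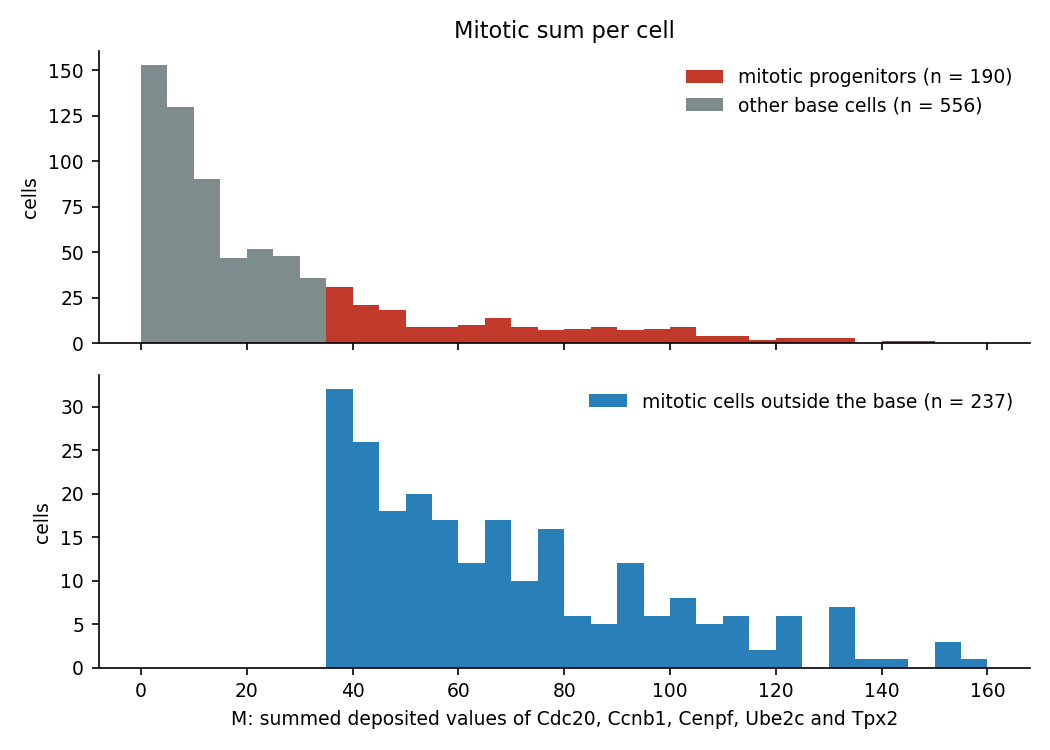
Number of cells (vertical axis) by M, the summed deposited values of the 5 mitotic genes per cell (horizontal axis, bins of 5). The upper panel shows the 190 mitotic progenitors and the 556 other base cells, the lower panel the 237 mitotic cells outside the base; M falls off without a gap on either side of the threshold of 35.

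No gap in M separated members from the rest of the base. The 31 members just inside the threshold, at an M of 35 to 39, had a Plk1 level of 1.62 per 10000, and the 36 base cells just outside it, at 30 to 34, had 1.30. A level here is the summed value of a gene per 10000 summed values of all genes in the same cells. Top2a stood at 8.42 just inside and 6.23 just outside, and Cenpe at 3.40 and 2.62. The label of mitosis is thus the upper end of a continuous range.

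Mitotic markers that the rule did not use were high in most members. Plk1 had a median value of 4 in member cells, with cells from 0 to 10, and a median of 0 in the other base cells, with cells from 0 to 5. Aurka, which encodes Aurora A, had a median of 2 (0 to 7) in members and 0 (0 to 5) in the other base cells. After each cell was thinned to 10000 values, Plk1 was found in 93.2% of members (exact 95% interval 88.6% to 96.3%), in 34.0% of other base cells (30.1% to 38.1%) and in 3.96% of neurons (3.09% to 5.0%), defined as cells with a Tubb3 value of at least 20 and no Hes5. Without thinning these shares were 94.7%, 41.4% and 4.66%, at median totals of 13579.5, 13505 and 12059.5 values per cell. The values of members and other base cells overlapped in both genes.

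Sox2, Vim and Nes, progenitor markers outside the rule, had a value in every member. Hes1 and Fabp7, also progenitor markers outside the rule, did not. Without thinning, Hes1 had a value in 65.3% of members and 68.2% of other base cells. Fabp7 had a median value of 18 (0 to 122) in members and 14 (0 to 183) in the other base cells. Sox2 is not confined to progenitors here: without thinning it had a value in 65.1% of neurons. Sox2, a transcription factor of neural stem cells, had values from 1 to 28 with a median of 9 in members and from 0 to 22 with a median of 8 in the other base cells. Vim and Nes, which encode the intermediate filaments vimentin and nestin of radial glia, had levels of 26.1 and 9.75 in members, against 23.0 and 8.85 in the other base cells. For each, the difference was smaller than the SD over cells. The summed level of 4 neuronal markers (Stmn2, Dcx, Elavl3 and Gad2) was 1.77 per 10000 in members, 2.27 in the other base cells and 41.5 in neurons. Single member cells reached 12.8 for this sum, and doublets were neither called nor removed.

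Blood transcripts, the sum of 6 hemoglobin and erythroid genes, stood at 1.25 per 10000 in members (0 to 4.39 in single cells) and 1.42 in the other base cells (0 to 7.33). Markers of endothelium (0.0118 in members, 0.0123 in other base cells) and of mesenchyme and mural cells (0.0431 and 0.0505) were near 0, from 2 of 5 and 3 of 6 markers with a row in the table. Of the microglial markers 1 of 5 had a row, and it was 0 in members. Glutamatergic lineage markers summed to 0.00784 in members and 0.00273 in other base cells, with Neurod1, Eomes and Slc17a6 at 0 in members.

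Against the other base cells, mitotic progenitors were higher in genes of mitotic entry, the kinetochore, the spindle and cytokinesis, and lower in genes of DNA replication. Among 3767 genes with a level of at least 0.5 per 10000 in either set, 99 (2.63%) were at least 2-fold higher in mitotic progenitors and 28 (0.743%) at least 2-fold lower. The median log2 ratio of all 3767 genes was -0.02. The mitotic lists together named 174 genes, of which 139 reached this level and 35 did not. Of the 134 at this level outside the rule, 60 were at least 2-fold higher and 0 at least 2-fold lower, with a median log2 ratio of 0.87. A gene that reaches the level in only 1 of the 2 sets tends to pass the fold through this filter alone. Of the 134, 31 reached it only in members and 2 only in the other base cells, and of the 101 that reached it in both 39 were at least 2-fold higher (median 0.66). The lists held 65 of the 99 higher genes (65.7%), the 5 genes of M included. Since M ordered the cells, genes that follow M had to differ here, and the counts describe which genes do so and support nothing further.

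Kinases and cyclins of mitotic entry were higher in 7 of 13 genes outside the rule. Of the 13, 4 reached the level of 0.5 only in members, Aurka and Cdc25c among them. Of the 9 that reached it in both sets, 3 were at least 2-fold higher and the median log2 ratio was 0.58. Plk1 had a level of 2.83 ± 1.70 (SD over 190 cells) in members and 0.509 ± 0.761 (SD over 556 cells) in the other base cells, a log2 ratio of 2.48. Aurka stood at 2.01 ± 1.27 and 0.405 ± 0.652, a ratio of 2.31. Cdk1, the kinase partner of cyclin B, was 3.28-fold higher at 5.05 in members and 1.54 in the other base cells, and Cdc25c, a phosphatase that activates Cdk1, was 2.96-fold higher at 0.533 and 0.180. Ccna2, which encodes the cyclin A that acts from S phase on, was 1.97-fold higher at 3.06 and 1.55, just short of 2-fold. Wee1, the kinase that holds Cdk1 inactive, had a log2 ratio of 0.34.

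In the anaphase-promoting complex list, 2 of 17 genes outside the rule were at least 2-fold higher and the median log2 ratio was 0.11. They were Fzr1, which encodes the activator Cdh1 that replaces Cdc20 at mitotic exit, at 1.09 in members and 0.342 in the other base cells, and Pttg1, which encodes securin, at 3.53 and 1.70. Fzr1 reached the level of 0.5 only in members, and of the 14 genes that reached it in both sets 1 was at least 2-fold higher. Ube2s, the E2 that extends ubiquitin chains after Ube2c, stood at 10.4 and 6.22, a log2 ratio of 0.74. Core subunits of the complex lay between -0.48 for Anapc4 and 0.80 for Cdc27, with Anapc11 at 0.04. Geminin, the product of Gmnn and a replication licensing inhibitor that the complex destroys, had a ratio of -0.56.

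Kinetochore and spindle checkpoint genes were higher in 13 of 28 genes outside the rule, with a median log2 ratio of 0.94. Of the 24 that reached the level in both sets, 11 were at least 2-fold higher (median 0.91). Cenpe, a motor that carries chromosomes to the plate, had a median value of 7 (0 to 25) in member cells and 1 (0 to 13) in the other base cells, and levels of 5.52 and 1.23. Cenpa, the centromeric histone, stood at 5.67 and 1.89, and the checkpoint kinase gene Bub1 at 1.56 and 0.721. Cenpk, a subunit of the constitutive centromere network, lay on the other side of 0 with a log2 ratio of -0.58.

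Spindle microtubule genes had the highest median of the lists outside the rule, 1.51, with 20 of 25 genes at least 2-fold higher. Of the 25, 8 reached the level only in members, Aspm among them. Of the 16 that reached it in both sets, 12 were at least 2-fold higher (median 1.46). Aspm, a spindle pole protein needed for the planar divisions of neural progenitors, stood at 2.23 ± 1.83 in members and 0.415 ± 0.634 in the other base cells, a 5.38-fold difference. Hmmr, a spindle assembly factor, stood at 3.67 and 0.773. Prc1, which bundles the microtubules of the central spindle, stood at 9.77 and 2.32. Tuba1c had a log2 ratio of 2.37, and its reads may be split with those of near-identical alpha tubulin genes. Haus8, a subunit of the augmin complex, had a ratio of -0.75.

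The chromosomal passenger complex places Aurora B at centromeres and then at the midzone, and all 4 of its genes were at least 2-fold higher. Incenp, its scaffold, stood at 2.73 and 0.832, Cdca8, which encodes borealin, at 8.76 and 3.33, and Birc5, which encodes survivin, at 6.22 and 2.57, in each case members before other base cells. Of 15 cytokinesis and midbody genes 8 were at least 2-fold higher, among them the midzone kinesin gene Kif20a at 0.878 and 0.228. Of the 15, 6 reached the level only in members, Kif20a among them. Of the 9 that reached it in both sets, 4 were at least 2-fold higher. Arl6ip1, a gene for a shaping protein of the endoplasmic reticulum that the cytokinesis list also held, stood at 12.3 and 2.60.

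Condensin, cohesin and mitotic chromosome genes were higher in 5 of 24 genes, with a median log2 ratio of 0.30. Of the 21 that reached the level in both sets, 4 were at least 2-fold higher. Top2a, the topoisomerase that separates sister chromatids, had a median value of 20 (0 to 46) in member cells and 5 (0 to 31) in the other base cells, and levels of 14.3 and 5.86. Mki67, the coat protein of mitotic chromosomes, stood at 6.34 and 2.86, and the condensin gene Smc4 at 7.53 and 3.62. Ncapd3, a condensin II subunit, stood at 0.604 and 0.941, a ratio of -0.64. Of 8 centrosome and apical division genes at this level 1 passed 2-fold: Gpsm2, which links the spindle to the cell cortex, at 0.898 in members and 0.416 in other base cells. Gpsm2 reached the level only in members, where it was high, and of the 4 genes that reached it in both sets 0 passed 2-fold. Nde1, a dynein regulator of apical progenitors, had a ratio of 0.95.

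**Figure D2:**
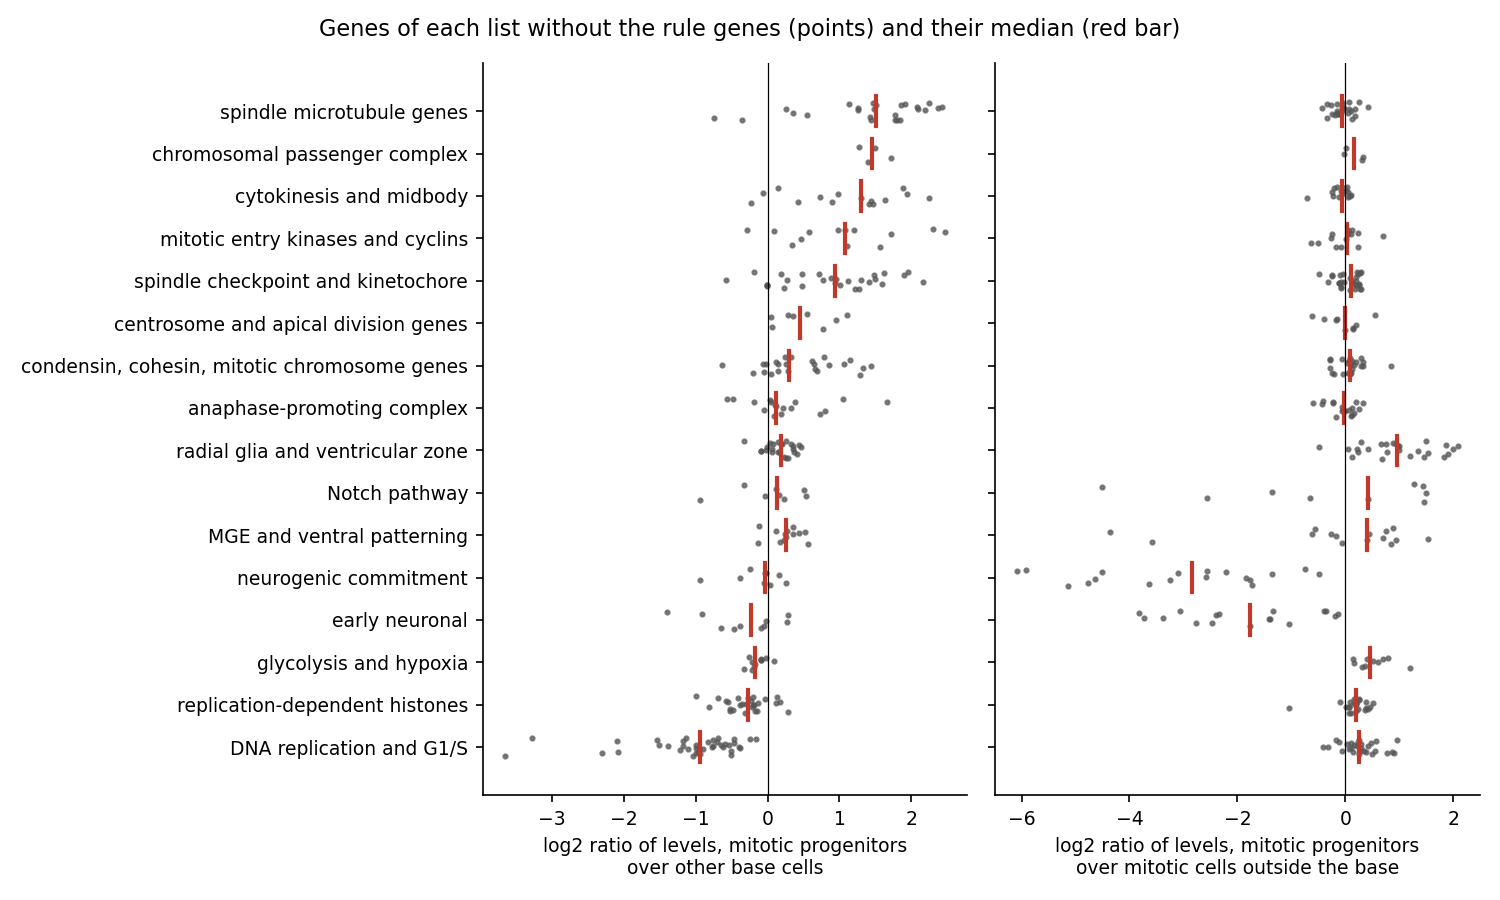
Log2 ratio of levels (horizontal axis) for the genes of 16 lists, mitotic progenitors over the other base cells (left) and over mitotic cells outside the base (right). Points are genes at a level of at least 0.5 per 10000 in either set of that comparison, without the genes of the rule, and red bars are medians; the spindle list has a median of 1.51 on the left and -0.07 on the right, and the neurogenic list -0.03 and -2.84.

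Outside the lists, the genes with the highest ratios over the other base cells also included known mitotic genes. They were, from the top, Fam83d, Kpna2, Psrc1, Sapcd2, Miip, Pimreg, Arhgap11a, Spdl1, Cenpl, Arhgap19, Cep89 and G2e3. Fam83d, which helps chromosomes align, stood at 0.502 in members and 0.0586 in the other base cells, an 8.56-fold difference. Kpna2, an importin alpha that binds Tpx2, stood at 2.32 and 0.468. Sapcd2, a regulator of spindle orientation, stood at 0.953 and 0.267, and Spdl1, which recruits dynein to kinetochores, at 1.22 and 0.383. Fam83d, Kpna2, Sapcd2 and Spdl1 reached the level of 0.5 only in members, where they were high, and Fam83d only just did so.

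Likeness to M over the 746 base cells gave a similar set of names without a threshold. Among 3548 genes the highest Spearman correlations outside the rule were those of Cdca8 (0.84), Cks2 (0.82), Arl6ip1 (0.78), Cenpe (0.77), Birc5 (0.76), Hmmr (0.76), Hmgb2 (0.72), Tubb4b (0.71), Plk1 (0.71), Cenpa (0.69), Kif22 (0.68) and Nusap1 (0.68). Hmgb2, a chromatin protein, differed less in level, at 29.8 in members and 19.4 in the other base cells. The lowest correlations were those of Ung (-0.58), Mcm6 (-0.57), Chaf1b (-0.53) and Ccne2 (-0.51). All points share 1 library and a narrow range of totals, and the correlations are descriptive.

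Genes of DNA replication and the G1/S transition were lower: of 39 at this level, 16 were at least 2-fold lower, 0 at least 2-fold higher, and the median log2 ratio was -0.94. Of these 39 genes, 12 reached the level only in the other base cells and so passed through the set where they were high. Among the 27 that reached it in both sets, 8 were at least 2-fold lower and the median was -0.77. Ung stood at 0.0824 ± 0.269 in members and 1.04 ± 1.17 in the other base cells, 12.7-fold lower. In thinned cells it was found in 6.84% of members (3.69% to 11.4%) and 53.6% of other base cells (49.4% to 57.8%), with 2.10% in neurons. Ccne2, a cyclin E gene of the G1/S transition, stood at 0.0824 and 0.799, Cdc6, which loads the replicative helicase, at 0.157 and 0.671, and the helicase gene Mcm6 at 1.07 and 2.82. Rrm2, a ribonucleotide reductase subunit, stood at 4.63 and 6.72, a ratio of -0.54.

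Of the 28 lower genes, 17 belonged to the replication or histone lists. The others were Atad2, Bok, Brca1, Cep162, Dpysl3, Dscc1, Fam111a, Lpl, Nsg1, Rnf168 and Rnf227. Several of these also act at replication forks or in DNA repair: Brca1 in homologous recombination (0.306 in members, 0.656 in other base cells), Dscc1 in loading the sliding clamp (0.282 and 0.606) and Rnf168 in the signalling of double-strand breaks (0.463 and 1.09). Dpysl3 and Nsg1 are neuronal genes, at 0.322 and 0.741 and at 0.560 and 1.49. Brca1, Dscc1, Rnf168 and Dpysl3 reached the level of 0.5 only in the other base cells, where they were high, so the filter shapes these names.

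Replication-dependent histones, whose transcripts accumulate in S phase, were intermediate. Of 27 at this level 1 was at least 2-fold lower, and the median log2 ratio was -0.27. Hist1h1b had a level of 19.4 ± 21.2 in members and 28.5 ± 30.0 in the other base cells, so the spread over cells exceeded the difference. Reads of these genes may be split between near-identical copies.

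The rest of the progenitor program differed by less than 2-fold between members and the other base cells. Over all genes at this level 2.63% were at least 2-fold higher and 0.743% lower, so a count of 0 in a short list is near that share. Of 25 radial glia and ventricular zone genes 0 passed 2-fold in either direction, with a median log2 ratio of 0.18 and a range from -0.33 for Prom1 to 0.46 for Sox9. Small differences leaned 1 way, with 20 of the 25 genes above 0. Over all 3767 genes the median log2 ratio was -0.02, so fewer of them lay above 0 than below it. Hes5, which the rule required in both sets, stood at 13.4 and 14.0. The other 8 Notch genes at this level had a median of 0.13, with Nrarp, a Notch-induced feedback inhibitor, at 1.86 in members and 1.29 in the other base cells and Hes1, a Notch effector, at 1.09 and 1.36. None of 13 MGE and ventral patterning genes passed 2-fold (median 0.25), and 11 had a ratio above 0. Nkx2-1, the MGE identity factor, stood at 2.25 ± 1.85 and 1.91 ± 1.79, Otx2 at 1.54 and 1.05, and Olig2 at 3.08 and 2.15.

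Ccnd1, the cyclin D gene of G1 progression, stood at 13.9 ± 5.72 in members and 10.4 ± 5.15 in the other base cells, 1.34-fold. Cdkn1c, an inhibitor of cell cycle progression, stood at 1.09 and 2.02. Of 9 neurogenic commitment genes 0 passed 2-fold (median -0.03), and of 10 early neuronal genes (median -0.23) only Nsg1 did, on the lower side. Glycolysis (median -0.18, 0 of 11 genes), dissociation stress (median 0.03, 0 of 6), Wnt and Fgf readout genes (median 0.22, 0 of 4) and genes of the DREAM and MuvB complexes themselves (median -0.01, 0 of 7) also had no gene past 2-fold. With 2.63% of all genes higher and 0.743% lower, a count of 0 in lists this short is near the share over all genes. Of the 11 glycolysis genes, 1 had a ratio above 0, where the median over all genes at this level was -0.02.

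Along 4 bins of M in the base, cut at its quartiles and taken from low to high, the mitotic and the replication lists moved in opposite directions. The bins held 185 cells with an M of 0 to 5, 188 with 6 to 14, 183 with 15 to 34, and the 190 members. The summed level of spindle genes, without Tpx2, was 36.5, 45.8, 60.6 and 92.4 per 10000. That of the chromosomal passenger complex was 3.62, 7.05, 11.7 and 19.8. Replication genes summed to 91.3, 84.4, 64.1 and 46.3, while histones were highest in the second bin, at 112.0, 164.2, 137.2 and 105.8. Radial glia genes stayed between 110.9 and 130.5.

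Mitotic genes also differed with M inside the members. In the 58 members with an M of 35 to 46, the 69 with 47 to 78 and the 63 with 79 to 149, spindle genes summed to 71.5, 90.1 and 113.5. Of 134 mitotic genes outside the rule, 110 were higher in the top bin than in the bottom one, 18 of them at least 2-fold, and 0 were at least 2-fold lower. Over all 3767 genes at the same level, 48.3% were higher in the top bin, 0.956% at least 2-fold, and 0.664% were at least 2-fold lower, with a median log2 ratio of -0.01 against 0.51 for the mitotic genes. M, which the rule used, orders these bins. Prc1 had levels of 5.19, 9.45 and 14.2 from the low to the high bin, Aspm 1.29, 1.74 and 3.60, and Top2a 9.04, 15.2 and 18.1. Histones summed to 125.9 and 130.0 in the low and middle bins and to 61.9 in the high bin, and Hist1h1b had 22.5, 24.3 and 11.52. Replication genes were nearly level, at 48.8, 46.7 and 43.5. The summed histone level of the other base cells was 138.0, so the low and middle bins of members lay near it and the high bin below it.

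**Figure D3:**
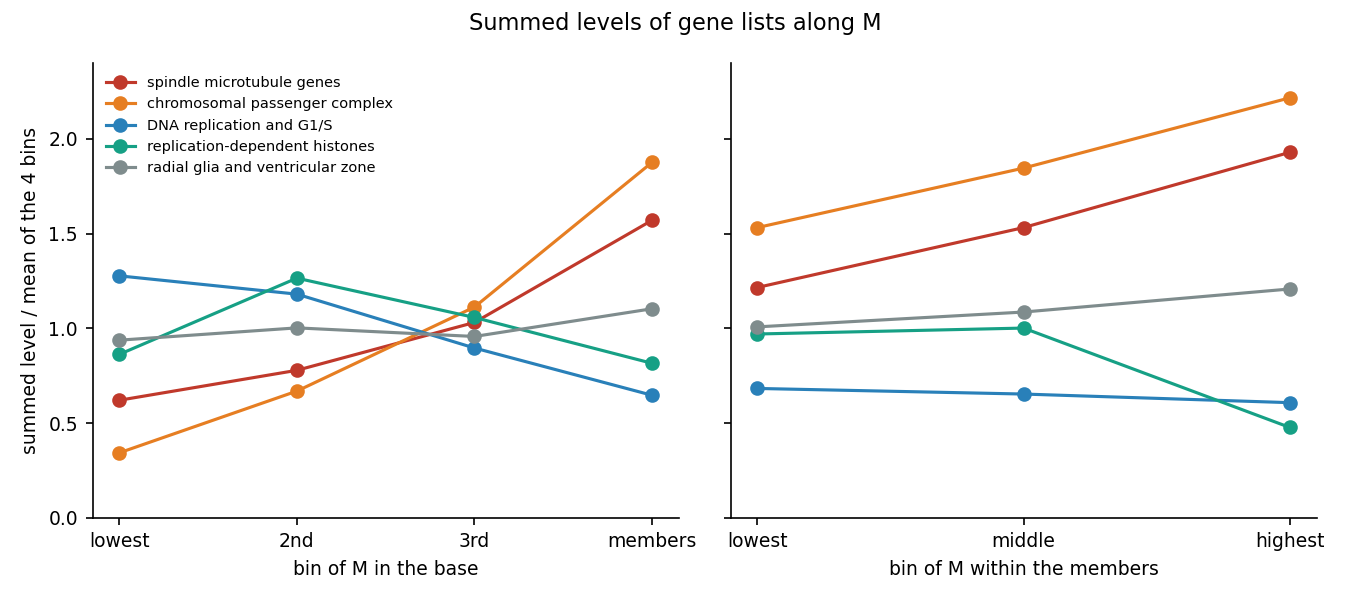
Summed levels of 5 gene lists without the genes of the rule, divided by the mean of the list over the 4 bins of the base (vertical axis), in these 4 bins of M (left, the last being the 190 members) and in 3 bins of M within the members (right), low to high. Replication genes reach their lowest value in the members (46.3 per 10000), and histones drop between the middle and the high bin (130.0 and 61.9 per 10000).

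Members were next compared with 2 other sets of the same base. The replication set took the 190 base cells at or above the 75th percentile of the summed replication list, and the histone set the 191 base cells at or above that percentile of the summed histones. Of the members, 1 was also in the replication set (0.526%, exact 95% interval 0.0133% to 2.90%) and 23 in the histone set (12.1%, 7.83% to 17.6%), where 25.5% and 25.6% of base cells were. The replication and histone sets shared 62 cells, 32.6% of the replication set and 32.5% of the histone set. The intervals cover the counting of cells only.

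Plk1 had a level of 2.83 in members, 0.991 in the histone set, 0.266 in the replication set and 0.499 in the 261 base cells of no set. Cenpe had the same order of members and histone set, at 5.52 and 1.90. Top2a lay closer together in members and the histone set, at 14.3 and 12.3, and stood at 5.14 in the replication set. H2afx, a histone variant with a polyadenylated transcript form, stood at 9.06 in members, 4.84 in the histone set and 3.09 in the replication set. Mcm6 ran the other way, at 1.07, 2.63 and 3.94, and Ung at 0.0824, 0.435 and 1.67. Both belong to the list whose sum picked the replication set, so high levels there follow from the selection.

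**Figure D4:**
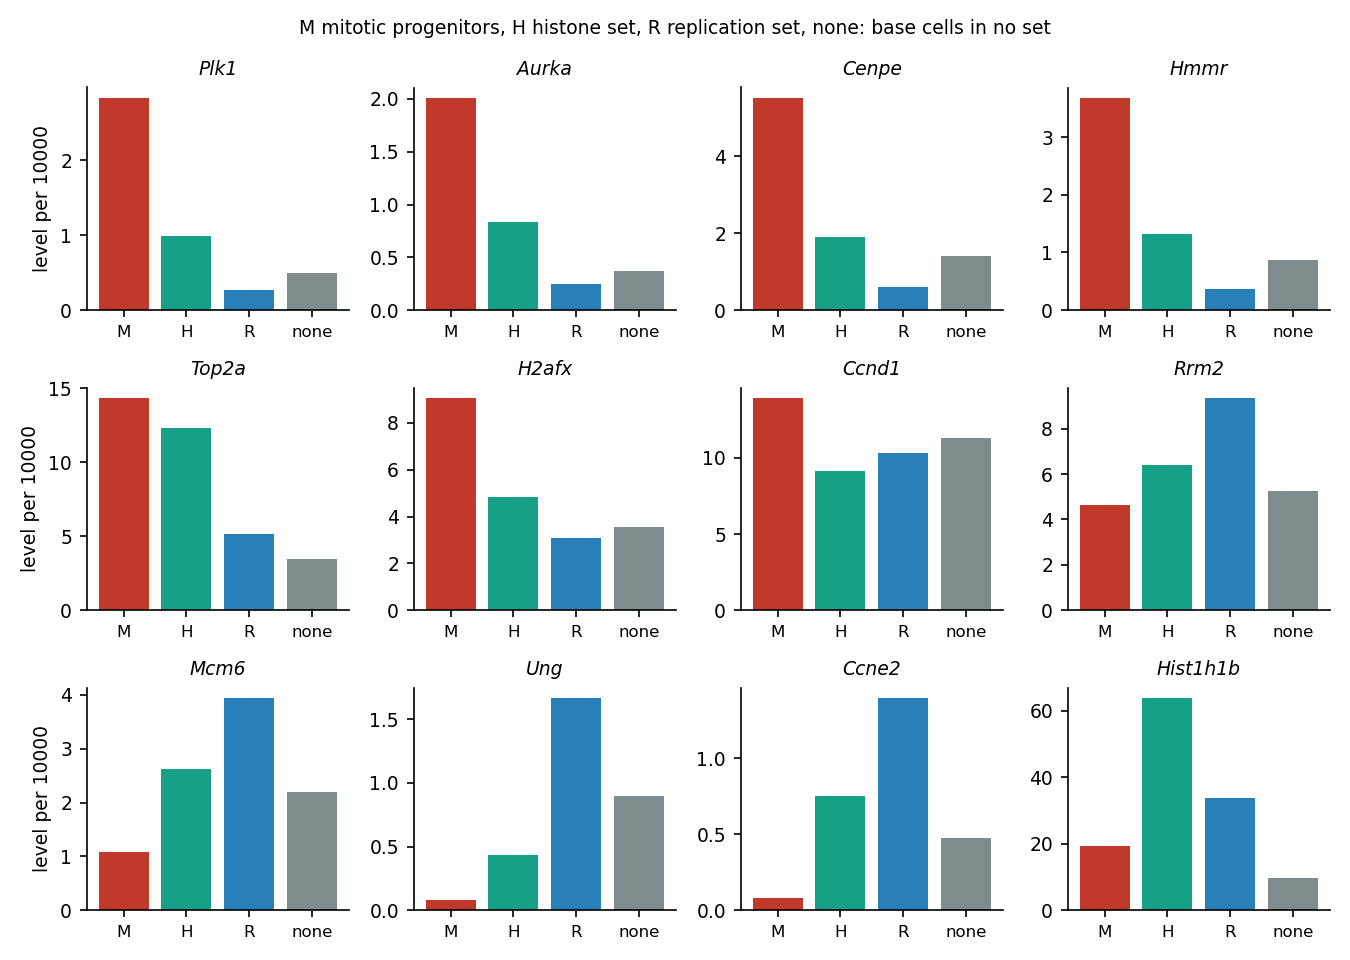
Levels per 10000 (vertical axes, each starting at 0) of 12 genes in the 190 mitotic progenitors (M), the 191 cells of the histone set (H), the 190 of the replication set (R) and the 261 base cells of no set (none); bars are single values of 1 library, without error bars. Plk1, Aurka, Cenpe and Hmmr stand highest in M, Rrm2, Mcm6, Ung and Ccne2 in R, and Hist1h1b in H. The genes highest in R or H belong to the lists whose sums picked these sets.

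The 237 mitotic cells outside the base failed it by a Dll1 value above 0 (158 cells), a Tubb3 value of at least 10 (140 cells) or a Hes5 value under 3 (137 cells), and 142 of them (59.9%) failed for more than 1 reason. Members were thus 44.5% of the 427 cells with an M of at least 35. At this matched M, the levels of mitotic genes differed little while those of differentiation genes differed strongly. The selection shapes both results. The 2 sets share the threshold of M, so genes that follow M had to be alike in level. The Hes5, Tubb3 and Dll1 gates separate the sets, so genes that follow these gates had to differ. Among 3881 genes at a level of at least 0.5 in either set, 80 (2.06%) were at least 2-fold higher in mitotic progenitors and 133 (3.43%) at least 2-fold lower, with a median log2 ratio of 0.01. Of 137 mitotic genes outside the rule 0 passed 2-fold in either direction. Their median log2 ratio was 0.02, and the highest was 0.84, for Ncapg2.

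Plk1 stood at 2.83 ± 1.70 in members and 2.81 ± 1.86 in the mitotic cells outside the base, Cdca8 at 8.76 and 8.65, and Aspm at 2.23 and 2.29. Smaller differences ran both ways. Ube2s stood at 10.4 ± 3.03 in members and 15.6 ± 6.29 outside, Ccnb2 at 2.12 and 3.03, and Cdc20 at 4.63 and 6.16. Prc1 was on the other side, at 9.77 ± 6.38 and 7.30 ± 6.26. Like levels can hide unlike spreads over cells. Top2a had a median value of 20 in both sets, but its quartiles were 13 and 26 in members and 2 and 30 outside. Those of Prc1 were 7.25 and 17 in members and 1 and 16 outside, while those of Plk1 were 2 and 5 in both sets. Replication genes had a median of 0.25 with 0 of 29 past 2-fold.

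Radial glia and ventricular zone genes were at least 2-fold higher in members for 11 of 26 genes, with a median log2 ratio of 0.95. In 5 of the 26 the level was reached only in members, and of the 20 at this level in both sets 8 were at least 2-fold higher (median 0.91). Fabp7, the brain fatty acid binding protein of radial glia, stood at 20.8 ± 20.9 in members and 5.26 ± 8.80 outside. Its median value per cell was 18 (0 to 122) in members and 2 (0 to 82) outside, so the ranges overlapped. Rgcc had the highest ratio of the list at 2.08, followed by Fabp7 and Sparc. Nes stood at 9.75 and 4.87, Sox9 at 4.43 and 2.30 and Sox2 at 7.38 and 6.01, the last 2 short of 2-fold. Sox3 had a ratio of -0.49.

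Notch targets were higher in members: Hes1 at 1.09 and 0.448, Hey1 at 0.529 and 0.187 and Nrarp at 1.86 and 0.680. Genes linked to cells that leave the progenitor state were lower, with Dll3, a Dll1 relative that dampens Notch, at 0.0510 and 1.16, Mfng, a glycosyltransferase of the fringe family, at 0.929 and 2.38 and Hes6, which promotes neuronal differentiation, at 0.471 and 2.77. Without Hes5 and Dll1, 4 of 9 Notch genes were at least 2-fold higher and 3 at least 2-fold lower, and among the 4 that reached the level in both sets 1 was higher and 1 lower. The Dll1 and Hes5 gates define these 2 sets of cells, and genes that follow either gate had to differ.

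Of 18 neurogenic commitment genes 16 were at least 2-fold lower in members, with a median log2 ratio of -2.84. Among the 18, 11 reached the level only in the cells outside the base, where they were high, so the filter shapes this count. Of the 7 that reached it in both sets, 5 were at least 2-fold lower and the median was -1.74. Dlx2, a homeobox gene of GABAergic differentiation, stood at 0.545 ± 1.28 in members and 3.26 ± 2.83 outside and was found in 26.8% of thinned member cells (20.7% to 33.7%), 74.7% of those outside (68.6% to 80.1%) and 80.9% of neurons. Gadd45g, induced in cells committed to differentiate, stood at 0.161 and 4.39, a 27.3-fold difference, and Sp9 at 0.0588 and 3.57. Sox4 and Sox11, which drive neuronal genes, stood at 5.03 and 17.2 and at 8.84 and 31.7.

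Early neuronal genes were at least 2-fold lower in 13 of 17 (median -1.77), among them Stmn2 at 0.396 in members and 3.31 outside. Here 8 of the 17 reached the level only outside, and of the 9 that reached it in both sets 5 were at least 2-fold lower (median -1.05). Tubb3, a neuronal tubulin gene, was part of the rule and is left out of these counts, but neuronal genes that follow it had to differ. Of the G1 cyclins and inhibitors, Ccnd1 was higher at 13.9 ± 5.72 and 6.86 ± 6.97, and Cdkn1c was lower at 1.09 ± 2.21 and 7.42 ± 12.5. In patterning genes, Otx2 was higher in members at 1.54 and 0.535, Lhx6 and Lhx8, factors of postmitotic MGE neurons, were lower (Lhx6 at 0.0549 and 1.13), and Nkx2-1 stood at 2.25 and 3.48, a log2 ratio of -0.62. Ldha, of the glycolysis list, stood at 7.37 and 3.22, the only 1 of 10 past 2-fold there. Wnt7b, a Wnt ligand, stood at 0.729 and 0.119 and reached the level only in members. Jun, an immediate early gene of the dissociation stress list, had a log2 ratio of 1.07, and the median of the 6 stress genes was -0.07.

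Outside the lists, the highest ratios over the mitotic cells outside the base were those of Plce1, Fgfbp3, Nim1k, Cspg5, Vcam1, Igfbp5, Cntnap2 and Nog. Vcam1, a cell adhesion receptor of neural stem cells, stood at 0.788 in members and 0.219 outside, and Nog, an extracellular BMP antagonist, at 0.671 and 0.193. Among the lowest ratios were those of Dlx6os1, Igfbpl1, Mir124a-1hg, Dpysl3, Mllt11, Prox1 and Srrm4. Srrm4, a regulator of neuronal splicing, stood at 0.110 in members and 0.951 outside. Vcam1 and Nog reached the level only in members and Srrm4 only outside, in each case the set where the gene was high.

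**Figure D5:**
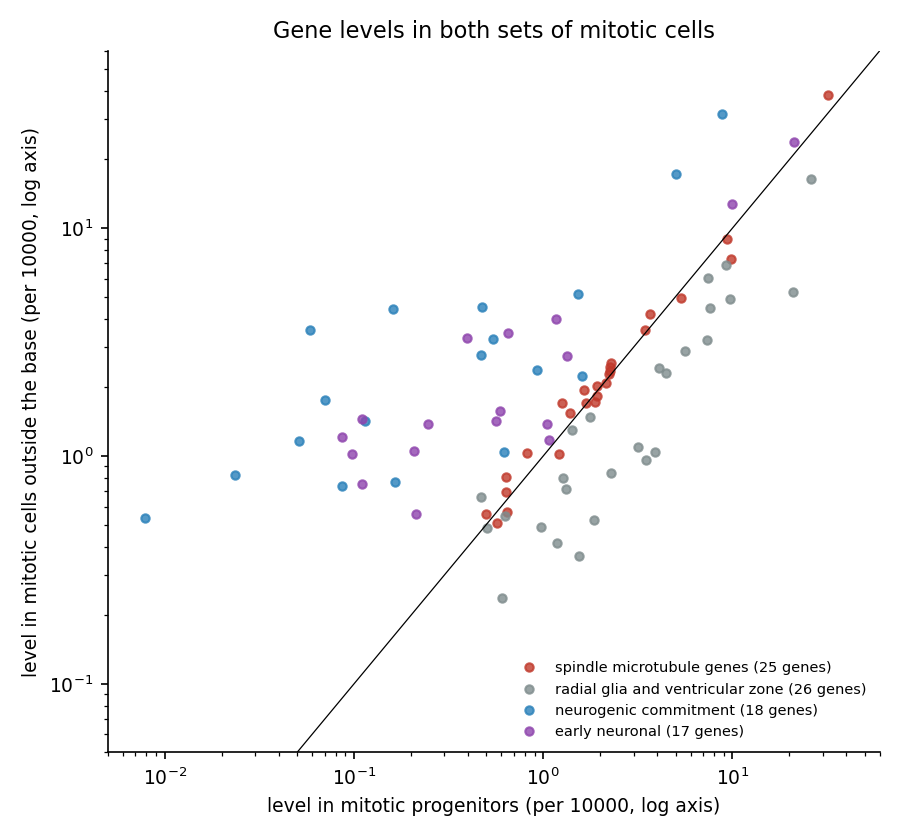
Gene levels per 10000 in the 190 mitotic progenitors (horizontal log axis) and in the 237 mitotic cells outside the base (vertical log axis), for genes of 4 lists at a level of at least 0.5 in either set, without the genes of the rule; the line marks equal levels. Spindle genes lie along the line (median log2 ratio -0.07), radial glia genes mostly below it (0.95), neurogenic (-2.84) and early neuronal genes (-1.77) above it.

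Members varied among themselves in regional markers. Nkx2-1 had a value above 0 in 163 of them and 0 in 27, with median M of 63 and 62. At a level of at least 0.5 in either set, 23 of 3910 genes (0.588%) were at least 2-fold higher in members with Nkx2-1 and 18 (0.46%) at least 2-fold lower, and 0 of 134 mitotic genes were among them. Most of the called genes, Dlx2 and Pax6 among them, reached the level only on the side where they were high. The filter thus shapes both counts, and the side without Nkx2-1 holds only 27 cells. Members with Nkx2-1 had more Otx2 (1.67, against 0.751 without Nkx2-1) and Dlx2 (0.612, against 0.139). Members without it had more Pax6, a factor of the dorsal and lateral ventricular zone: 0.0183 with Nkx2-1, from 3 cells, and 0.528 without, from 9 cells. Nr2f2, a factor of the caudal eminence, stood at 0.858 with Nkx2-1 and 2.31 without. A value of 0 in a cell can also be a missed transcript, and both sides of this split are cells of 1 library.

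The promoter letters printed at the start were then counted over all genes with a window in RefSeq. Of the 99 higher genes 86 had a window, and 62 of these (72.1%) held CHR letters. So did 6 of 18 lower genes with a window (33.3%), 708 of 2991 genes at the same level (23.7%) and 30.6% of all 27025 genes with a window. CCAAT letters were in 76.7% of the higher genes, 55.6% of the lower genes, 44.8% of genes at the same level and 41.1% of all genes with a window. Both were present in 60.5% of the higher genes, 16.7% of the lower genes, 10.8% of genes at the same level and 12.2% of all genes with a window. All 4 matched genes of M held both. These are matches of letters and not measured binding, the sites of neighbouring genes can share a window, and the higher genes include those of the rule.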

How the data were processed

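The RNA library was deposited as a table of 18088 rows and 4001 cells. Cell Ranger 3.0.2, bcl2fastq and the mouse build GRCm38 are named in the submitters' processing notes. The deposited values were treated as a score that the authors made from UMI counts: they are whole numbers from 0 to 1245, but cell totals lie only between 10475 and 14196 (median 12505) and 5.0% of cells rarely hold a value of 1. The sources used here do not give the scaling step, so sequencing depth per cell is unknown and a count test was not used. The table had 0 mitochondrial and 0 reporter rows, and 2471 to 5486 genes per cell. Where 1 of 9 symbols named several rows, only that with the highest total was used.

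Levels are summed values per 10000, given with the SD over cells. With 1 library and no map from cells to samples there are no replicates and no test. A gene counts as higher or lower at a 2-fold ratio of levels, among genes at 0.5 or more in either set. Shares of cells were taken after thinning each cell to 10000 values, which left out no cell, with exact (Clopper-Pearson) 95% intervals. Cells were not filtered further. The members, the 23 gene lists and the rules for naming genes were chosen with earlier results of these data known. Named genes are list members and, outside the lists, the 12 genes at each end of the ratio (8 against mitotic cells outside the base), leaving out Rpl, Rps, Gm and Rik genes. Some results under these rules are not reported here. Promoter windows of 300 bases came from RefSeq on GRCm38.p6. Python 3.11.15 with numpy 2.4.6, pandas 2.3.3 and scipy 1.17.1 was used, and the level and ratio steps were tested on simulated data. The alternatives varied the thresholds of M, Hes5 and level, the scaling, the cells kept and the genes in M.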

Additional observations from a re-analysis of the deposited data

How the results depend on the processing

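No paired analysis was possible because the RNA values come from 1 library with no replicate pairs. Of 58 counts of genes past 2-fold under the alternatives, 46 stayed within 1.5 times of the reported 99 higher and 28 lower (against the other base cells) and 80 higher and 133 lower (against mitotic cells outside the base). A threshold at the 90th percentile of M (75 members) gave 50 lower against the base and 148 higher against the cells outside it, and one at the median of M (373 members) gave 14 and 45. A minimum level of 1 gave 15 lower against the base, and 40 higher and 76 lower against the cells outside it. A minimum level of 0.1 gave 204 higher and 100 lower against the base, and 463 higher and 374 lower against the cells outside it. Setting members against base cells below the median of M gave 50 lower. Under leaving out any gene of M, the Hes5 thresholds, no rescaling, or leaving out cells that skip the value 1 or hold the most genes, these counts stayed within 1.5 times.

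For list medians, 230 values moved by less than 1.5-fold and 2 by more: histones against the base at the 90th percentile (-1.0) and Notch genes against the cells outside the base at a minimum level of 1 (-0.66). For named genes, 1013 values moved by less than 1.5-fold and 34 by more. Medians near 0 changed sign with the setting: mitotic genes against the cells outside the base ran from -0.03 to 0.06, patterning genes there from -0.06 to 0.44, histones there from -0.38 to 0.33, and neurogenic genes against the base from -0.38 to 0.04. Unknown raw depth limits every level near 0.5, and intervals cover the counting of cells only.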

Other observations

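Of the 237 mitotic cells outside the base, 63 failed it only by a Dll1 value above 0. These cells were singled out after their values had been seen. Mitotic progenitors and these cells had like levels of Hes5 (13.4 in members, 12.4 in the Dll1 cells), Plk1 (2.83 and 2.92), Top2a (14.3 and 13.3) and Ccnd1 (13.9 and 12.4). Both sets passed the same gates of Hes5 and M, so like levels of Hes5 and of genes that follow M come from the selection. The median M was 62 in members and 54 in the Dll1 cells. Genes of neurogenic commitment were lower in members: Gadd45g stood at 0.161 in members and 4.13 in the Dll1 cells, Hes6 at 0.471 and 2.30, and Insm1, a zinc finger factor of neurogenic progenitors, at 0.114 and 1.18. Id4 stood at 3.16 in members and 1.20 in the Dll1 cells, and Fabp7 at 20.8 and 12.03. The Dll1 value alone separates these sets by construction, and the differences were not tested.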
